A study of Mus musculus with 2 samples.

Results

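The 10 genes described here are the mouse liver carboxylesterases Ces1c, Ces1d, Ces1e, Ces1f, Ces1g, Ces2a, Ces2c, Ces2e, Ces3a and Ces3b. They were taken as the gene probes whose RefSeq identifier maps to those symbols, which gave 13 probes for 10 genes, of 20652 genes with a probe on the array. All 10 were well above background on both arrays and so lie among the 14288 genes for which a difference could be set. By its title the study concerns miR-378, a microRNA that responds to thyroid hormone, and how it acts on cholesterol through the making of bile acids by the liver. Adenovirus labelled as overexpressing miR-378 (Ad-378) or a control adenovirus (Ad-Ctrl) was given through the tail vein, at 1e9 plaque forming units, to male mice 8 weeks of age. Livers of 5 mice per group were combined into 1 pool and put on 1 array, so single mice cannot be told apart, and no strain is given in the labels used here. The protocols have both groups collected after 2 weeks, but the Ad-378 sample's own description gives 3 weeks. The extraction text describes a blood RNA kit with globin removal although the tissue is labelled liver. The cells that take up the virus and the insert of the control virus are not stated in the labels used here, and the level of the microRNA was not analysed here.

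Carboxylesterases are serine hydrolases that split ester, amide and thioester bonds. In hepatocytes most of them lie in the lumen of the endoplasmic reticulum, where they activate or clear ester drugs and some hydrolyse stored triacylglycerol and cholesteryl ester for lipoprotein assembly. Mice carry several tandem copies of the Ces1 and Ces2 types, and in humans CES1 and CES2 are the main hydrolases of ester drugs.

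Of 43020 gene spots on each array, 63.1% (Ad-Ctrl) and 65.7% (Ad-378) were well above background and 0 were saturated. The liver label was checked against its markers, and all 8 hepatocyte markers (Alb, Ttr, Apoa1, Serpina1a, Tat, Fabp1, Cps1 and Cyp2e1) were well above background in both pools. Their log2 differences between pools ran from -0.08 to 0.34, with a median of 0.18. That median was -0.01 after quantile normalization and -0.03 after loess normalization, so the sign of this small shift rests on the scaling.

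Among the 10 members, 8 had a positive difference, Ad-378 minus Ad-Ctrl, and 2 a negative one, while 53.9% of all genes were positive. The 8 include Ces1c and Ces2c, whose sign rests on the processing: 7 members were positive after loess normalization (47.4% of all genes) and 7 with the mean over probes (54.1%). Ces1f and Ces1e were the 2 members at least 2-fold higher, and 0 members were at least 2-fold lower. The share of all 14288 genes at least 2-fold higher was 2.83%, and 4.51% were lower by as much. The median log2 difference of the members was 0.49, beside 0.04 over all genes. After quantile normalization it was 0.33 beside -0.00, and after loess normalization 0.31 beside -0.03. With 1 array per group no test was possible. The members were chosen with earlier results of these data known, so their counts and medians beside all genes are a description. Each difference is given with the scanner error of its spots (± 0.20 on the log2 scale for every member). The deposited relative error was 0.1 on both arrays for the reported probe of every member. Calls within or beyond the scanner range of members therefore rest on this 1 constant. Probes with 10 spots had a smaller median SD, 0.060 (Ad-Ctrl) and 0.065 (Ad-378) on the log2 scale. The scanner error covers measurement on the array and not the spread between mice or pools. Fewer cells of a type and less RNA per cell cannot be told apart in pooled tissue.

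Set against the 95% range of the scanner error around 0, 6 members lay higher, 1 lower and 3 within it, while 15.9% of all genes lay higher and 17.3% lower. After loess normalization these counts were 4, 2 and 4 (12.5% and 19.7% of all genes), and after quantile normalization 5, 2 and 3 (13.8% and 18.5%). Ces1e, Ces1f, Ces2a and Ces3b lay higher and Ces1g lower in each of the 8 settings. Ces1d lost its call under 5 alternatives and Ces3a under loess, and Ces2e came to lie lower after quantile and loess normalization. Of the members, 4 were at least 1.5-fold higher and 0 lower by as much, beside 8.79% and 12.0% of all genes. In the order of their differences the members were Ces1f, Ces1e, Ces3b, Ces2a, Ces3a, Ces1d, Ces2c, Ces1c, Ces2e and Ces1g. None of the 9 pairs of neighbours in that order differed beyond the scanner error of the pair. Gaps ran from 0.07 to 0.50, and the 95% range of a gap was 0.57. Ces1f and Ces3b, 2 places apart, had a gap of 0.57 that lay just beyond that range.

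**Figure D1:**
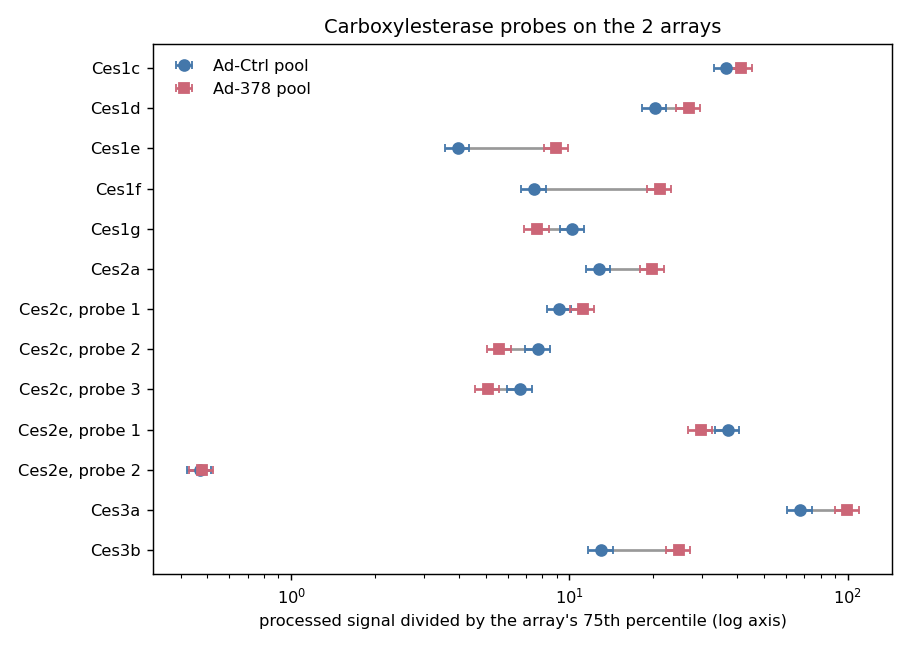
Processed signal of the 13 carboxylesterase probes on the 2 arrays, divided by each array's 75th percentile (log axis); circles are the Ad-Ctrl pool, squares the Ad-378 pool, bars the scanner error of 1 spot. The pools are furthest apart at Ces1f and Ces1e; positions of different probes do not compare the abundance of genes.

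Ces1f and Ces1e stood highest. Ces1f, also named TGH-2 and known as a lipase of stored hepatocyte lipid, had a processed signal of 5983 ± 598 under Ad-Ctrl and 14664 ± 1466 under Ad-378 (scanner error, 1 spot each). Relative to the arrays' 75th percentiles, which were signals of 800 and 695, this was a log2 difference of 1.497, or 2.82-fold. Only 0.882% of all genes had a higher difference. Ces1e, or egasyn, is the esterase that binds beta-glucuronidase and holds it in the endoplasmic reticulum. Its signal was 3182 ± 318 under Ad-Ctrl and 6243 ± 624 under Ad-378. The log2 difference was 1.18, or 2.26-fold, and 1.89% of all genes had a higher one. Both stayed at least 2-fold higher under each of the 7 other settings tried. The mean over probes and the lack of a background filter could not change either value, since each gene has 1 probe, well above background. Over the 8 settings the values ran from 1.36 to 1.497 for Ces1f and from 1.07 to 1.18 for Ces1e.

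The triacylglycerol hydrolase Ces1d and the plasma esterase Ces1c had smaller differences than Ces1f and Ces1e. Ces1d (TGH) mobilises stored triacylglycerol for very low density lipoprotein. It had 16219 ± 1622 under Ad-Ctrl and 18689 ± 1869 under Ad-378, a log2 difference of 0.41 whose 95% scanner range (0.01 to 0.81) only just left out 0. After quantile or loess normalization it was 0.25, a difference from 0 that is within scanner error. Ces1c is secreted by the liver and makes up the main esterase of mouse plasma. Its signals were 29339.9 ± 2934 under Ad-Ctrl and 28726 ± 2873 under Ad-378. The processed signal before scaling was thus slightly lower in the Ad-378 pool, whereas the scaled log2 difference was 0.17. It was 0.03 after quantile and -0.00 after loess normalization, so no direction can be given for this gene.

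Ces1g was the member with the lowest difference. It is also called esterase-x, and its loss in mice is known to raise hepatic lipid synthesis and lipoprotein secretion. Its signal was 8213 ± 821 under Ad-Ctrl and 5324 ± 532 under Ad-378. The log2 difference was -0.42, or 1.34-fold lower, with a 95% scanner range (-0.82 to -0.02) that only just left out 0. A lower difference was found for 17.6% of all genes. The difference of Ces1g lay between -0.54 and -0.42 over the 8 settings. Its gap to the adjoining Ces1f, 1.92 on the log2 scale, was beyond the 95% scanner range of 0.57.

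The 3 Ces2 members were split. Ces2a, an endoplasmic reticulum hydrolase of mono- and diacylglycerols, had 10221 ± 1022 under Ad-Ctrl and 13806 ± 1381 under Ad-378, a log2 difference of 0.64 (0.49 to 0.64 over the settings). Ces2e had 29668 ± 2967 under Ad-Ctrl and 20597 ± 2060 under Ad-378 at its brighter probe, a difference of -0.32 that was within scanner error of 0. It was beyond it after quantile (-0.48) and loess (-0.49) normalization. Its dimmer probe, at signals of 375 and 331, gave 0.02. The gap between these probes, -0.35, was also within the scanner range.

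For Ces2c, which has triacylglycerol hydrolase activity in liver and gut, the 3 probes of 1 transcript went against each other. The brightest had 7362 under Ad-Ctrl and 7755 under Ad-378, a log2 difference of 0.28. The second had 6180.1 and 3894 (-0.46), and the third 5321 and 3532 (-0.39). The brightest probe differed from the others by 0.74 and 0.67, both beyond the 95% scanner range of 0.57, while the other 2 differed from each other by 0.08 in size. The gene therefore has no settled direction: with the mean over its probes the difference was -0.19. Of 3419 genes with several measured probes, 27.1% had probes of opposite sign. The Ces1 and Ces2 genes are close copies of each other, the probe sequences were not used here, and cross-hybridisation between copies was not tested.

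Both Ces3 members were higher. They are liver esterases of the endoplasmic reticulum known as the esterase 31 type. Ces3b had 10409.5 ± 1041 under Ad-Ctrl and 17198 ± 1720 under Ad-378, a log2 difference of 0.93 or 1.90-fold, and 3.32% of all genes had a higher one. The local background of its spot carried an outlier mark on the Ad-378 array, where it was 34 against 22 on the other array, both small beside the signal. Ces3a had 54089.6 ± 5409 under Ad-Ctrl and 69407 ± 6941 under Ad-378, a difference of 0.56. The Ces3a difference was 0.36 after loess and 0.40 after quantile normalization. Both stayed positive under the 8 settings, from 0.78 to 0.93 for Ces3b and from 0.36 to 0.58 for Ces3a.

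**Figure D2:**
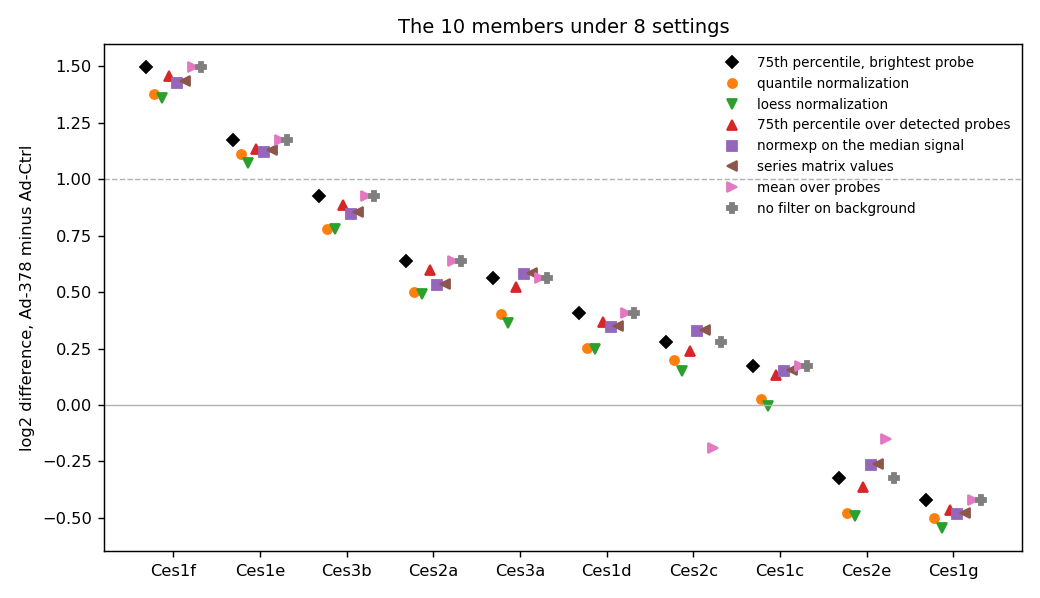
Log2 difference (Ad-378 minus Ad-Ctrl) of each member under 8 processing settings, 1 symbol per setting, members in order of their value at the 75th percentile; the dashed line is 2-fold. Ces1f and Ces1e lie above 1 in each setting, Ces2c turns to -0.19 with the mean over probes, and Ces1c reaches 0 after loess normalization.

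**Figure D3:**
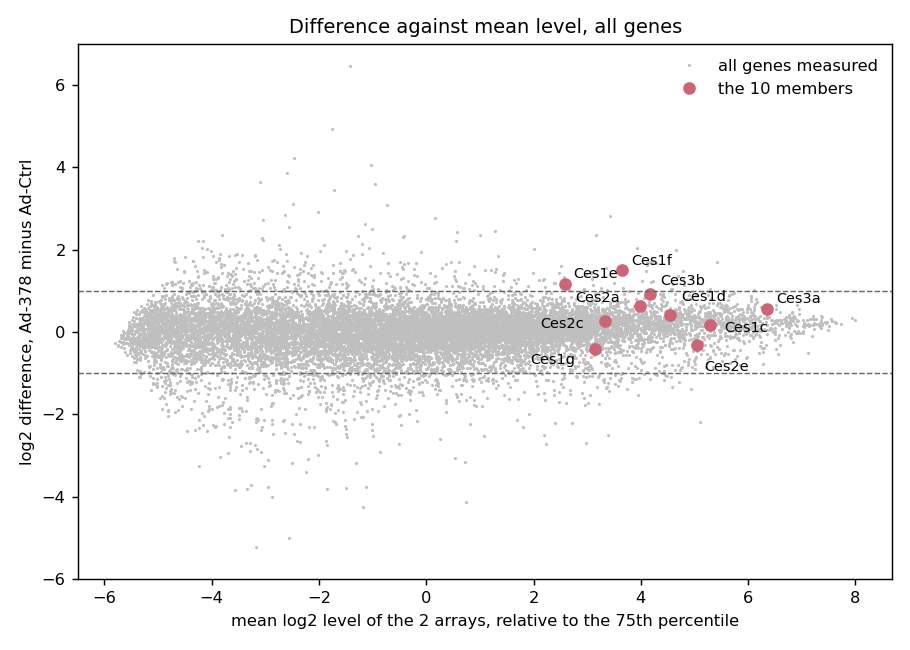
Log2 difference against mean log2 level for the 14288 genes measured (grey), with the 10 members in colour; dashed lines are 2-fold. The members sit among bright probes, and 8 of 10 lie above 0.

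Among the remaining carboxylesterase genes, 5 of 10 could be measured. Of those 5, 3 had a positive difference and 2 a negative one, while 53.9% of all genes were positive. Their median was 0.11, and 0.06 after quantile and after loess normalization. Ces1b had 3890.0 ± 389 under Ad-Ctrl and 6083 ± 608 under Ad-378, a log2 difference of 0.85 (0.74 to 0.89 over the settings). Ces2b had 5041 ± 504 and 3219 ± 322, a difference of -0.44, and Ces2g had 1762 ± 176 and 1649.7 ± 165, a difference of 0.11. Ces4a and Ces1a were dim, and the size of their differences rests on the background treatment. Ces4a had 56.3 ± 6.6 under Ad-Ctrl and 284.5 ± 28.6 under Ad-378, a difference of 2.54 that was 1.74 after normexp background correction and 1.80 on the raw median signals. Ces1a had 65.9 ± 7.3 and 29.0 ± 3.7, a difference of -0.98 that was -0.35 after normexp and -0.45 on the raw median signals. Ces2f and Ces5a were not well above background on either array, and Ces1h, Ces2d-ps and Ces2h had no probe matched by identifier.

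In chromosome order, several adjoining copies differed from each other. The RefSeq table puts these genes on chromosome 8 in 2 clusters, Ces1 with Ces5a (9 protein-coding genes) and Ces2, Ces3 and Ces4a (10 protein-coding genes and the pseudogene Ces2d-ps), with 0 other protein-coding genes inside either. Ces1e and Ces1f, adjoining genes, had the 2 highest differences of the members, with a gap of 0.32 within the scanner range. On either side of them the difference dropped beyond that range, by 0.77 from Ces1e to Ces1d and by 1.92 from Ces1f to Ces1g. In the other cluster Ces2a and Ces2b, the first pair, were 1.08 apart with opposite signs. Ces3a and Ces3b, also adjoining, differed by 0.36 within the range. Only the order is used here, since the array headers name build mm9 and the table is GRCm38.p6.

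**Figure D4:**
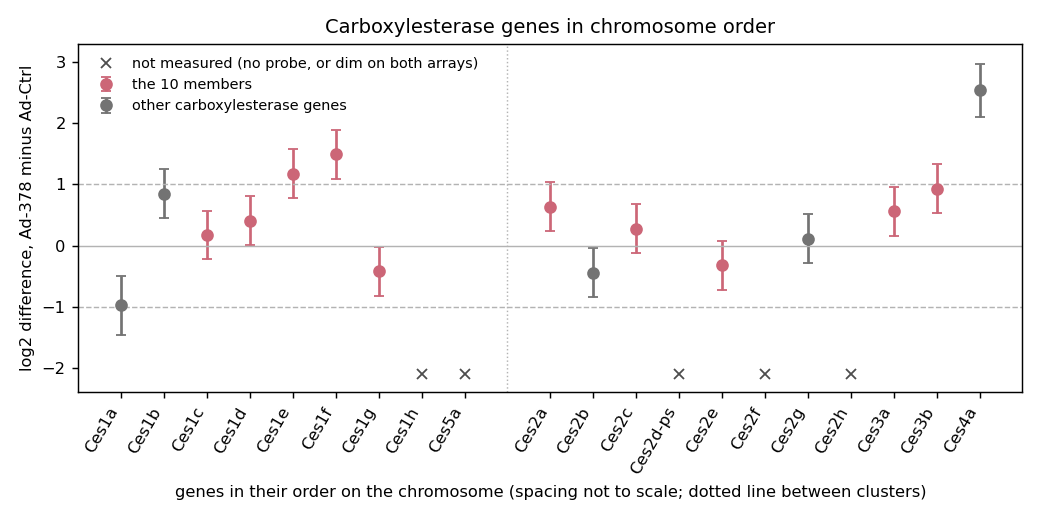
Log2 difference (Ad-378 minus Ad-Ctrl) of the carboxylesterase genes in their order on the chromosome, members in colour and other genes in grey; bars are the 95% range of the scanner error, crosses mark genes not measured, and spacing is not to scale. Ces1e and Ces1f stand next to Ces1g, which lies below 0.

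Promoter sequences are shown so that the start regions of copies within a cluster can be read against each other. RefSeq windows (build GRCm38.p6) of 250 bases before to 50 after the start site were matched by symbol for 7 of the 10 members, not for Ces1d, Ces1f and Ces3a. Those of Ces1c (chr8:93131234-93131533, minus strand), Ces1e (chr8:93229570-93229869, minus strand) and Ces1g (chr8:93337160-93337459, minus strand) follow, with the letters TTATGTAA in capitals. This is the form of site that the PAR bZIP proteins, a family of clock output factors, are known to bind.
Ces1c: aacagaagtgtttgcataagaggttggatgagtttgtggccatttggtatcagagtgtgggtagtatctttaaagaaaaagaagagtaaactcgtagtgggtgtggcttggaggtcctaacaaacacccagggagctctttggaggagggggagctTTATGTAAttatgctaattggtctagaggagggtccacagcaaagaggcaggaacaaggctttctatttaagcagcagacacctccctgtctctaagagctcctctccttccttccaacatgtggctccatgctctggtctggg
Ces1e: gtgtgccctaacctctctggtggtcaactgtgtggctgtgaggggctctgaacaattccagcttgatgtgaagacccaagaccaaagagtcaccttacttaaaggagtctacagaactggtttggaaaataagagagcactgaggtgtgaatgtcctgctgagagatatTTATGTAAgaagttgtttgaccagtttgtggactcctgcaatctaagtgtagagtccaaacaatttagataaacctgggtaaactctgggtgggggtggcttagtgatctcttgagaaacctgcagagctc
Ces1g: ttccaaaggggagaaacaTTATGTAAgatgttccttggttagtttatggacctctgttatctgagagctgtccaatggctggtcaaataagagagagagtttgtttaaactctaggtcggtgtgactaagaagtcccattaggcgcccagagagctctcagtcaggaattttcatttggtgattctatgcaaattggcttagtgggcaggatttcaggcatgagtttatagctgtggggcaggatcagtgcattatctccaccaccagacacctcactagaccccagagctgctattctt

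The 8 letters were present in 5 of the 6 Ces1 genes with a window (Ces1a, Ces1b, Ces1c, Ces1e and Ces1g), against 0.938% of all 32851 windows. They began at base -94 from the start site in Ces1c, -81 in Ces1e and -232 in Ces1g. Distance alone does not pair these sites. The bases that follow read gaagttgtttgacc in Ces1e, the similar gatgttccttggtt in Ces1g, and ttatgctaattggt in Ces1c. The log2 differences of the 5 genes with the letters ran from -0.98 (Ces1a) to 1.18 (Ces1e). Ces1a is dim, and its value was -0.35 after normexp and -0.45 on the raw median signals. Ces1g was also negative, at -0.42. Any effect of the letters on these differences was not tested. The windows of Ces1b (1 of its 2 windows) and Ces1c were 81.6% identical with a shared run of 58 bases. The log2 differences of Ces1b and Ces1c were 0.85 and 0.17, a gap of 0.68 beyond the scanner range of 0.57. Windows of Ces1e and Ces1g were 46.3% identical when aligned over their full length. The letters lie at -81 in 1 and -232 in the other, so this value does not measure likeness around the letters. Pairs within a type had a median identity of 51.1%, and pairs of different types 46.7%.

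Among Ces2 genes a different stretch was shared, ACTTTGCCC, in capitals in the windows of Ces2a (chr8:104733753-104734052, plus strand) and Ces2e (chr8:104926010-104926309, plus strand), the Ces2 members with the highest and lowest difference.
Ces2a: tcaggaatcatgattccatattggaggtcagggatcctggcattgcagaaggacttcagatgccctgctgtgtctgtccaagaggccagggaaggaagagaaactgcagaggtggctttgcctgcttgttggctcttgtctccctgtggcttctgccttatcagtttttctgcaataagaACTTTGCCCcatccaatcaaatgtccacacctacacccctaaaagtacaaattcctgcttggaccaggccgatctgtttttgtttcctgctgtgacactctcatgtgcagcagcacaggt
Ces2e: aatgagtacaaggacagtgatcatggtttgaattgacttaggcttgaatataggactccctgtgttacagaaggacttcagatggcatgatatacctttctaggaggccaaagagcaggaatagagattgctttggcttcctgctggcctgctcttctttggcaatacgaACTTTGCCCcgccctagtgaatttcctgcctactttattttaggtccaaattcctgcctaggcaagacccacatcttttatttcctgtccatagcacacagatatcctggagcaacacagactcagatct

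It was present in 4 of the 6 Ces2 genes with a window (Ces2a, Ces2e, Ces2f and Ces2g), and not in Ces2c, against 0.262% of all windows. It began at base -70 in Ces2a and -80 in Ces2e. Both motifs were chosen after these sequences had been read, so their counts are a description. Of the other motifs searched on both strands, 5 are given here. CAAAGTCC (1 form of an HNF4 type site) and TGACNNNGC (the core of the Nrf2 element) were in 0 of the 7 member windows, as was the STAT type palindrome TTCNNNGAA. The nuclear receptor core AGGTCA was in 1 (Ces2a) and TATAAA in 2 (Ces1g and Ces3b). Of all windows these 5 were held by 1.42%, 12.4%, 8.30%, 16.3% and 13.6%. Only the letters given were searched, so the 0 for CAAAGTCC does not cover other forms of an HNF4 type site. Read on the other strand, the stretch ACTTTGCCC of Ces2a and Ces2e contains CAAAGT, the start of CAAAGTCC. Whether that stretch is such a site was not tested. A match describes letters in this window and no more.

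Other hydrolases of esters and lipids showed smaller differences on the whole. Of 25 genes, all measured, 20 had a positive difference, beside 53.9% of all genes, with a median of 0.20 (0.11 after quantile and 0.09 after loess normalization). At the 2-fold mark 1 was higher and 1 lower, beside 2.83% and 4.51% of all genes. Pnpla7, a lysophospholipase, had 4346 ± 435 under Ad-Ctrl and 9215.5 ± 922 under Ad-378, a log2 difference of 1.29. Lpl, the lipoprotein lipase of vessel walls, had 7073 ± 707 and 2112 ± 211, a difference of -1.54. The phospholipase gene Ddhd2 (0.99) and the monoacylglycerol lipase gene Mgll (0.97) lay just inside 2-fold. Ddhd2 passed it after quantile normalization (1.01) and Mgll with the mean over probes (1.33).

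Partners in lipoprotein assembly and lipid droplets included larger differences. Of 16 genes 13 were positive (10 after quantile or loess normalization), beside 53.9% of all genes, and the median was 0.21. At the 2-fold mark 3 were higher and 0 lower, beside 2.83% and 4.51% of all genes. G0s2, the inhibitor of adipose triglyceride lipase, had 703.5 ± 70.4 under Ad-Ctrl and 3140.3 ± 314 under Ad-378, a difference of 2.36. The lipid droplet protein genes Cidec and Plin2 had 1.68 and 1.03, but Plin2 was 0.87 after quantile, 0.84 after loess normalization and 0.99 with the percentile over detected probes. Sar1b, which drives the export of lipoproteins from the endoplasmic reticulum, had 0.62.

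Of 19 nuclear receptors and other regulators of drug-metabolism genes, 9 were positive and 10 negative, and the median was -0.03 (0.02 with the mean over probes). At 2-fold 0 were higher and 1 lower, beside 2.83% and 4.51% of all genes. The bile acid signalling gene Nr0b2 had 322 ± 32.4 under Ad-Ctrl and 105 ± 10.7 under Ad-378, a difference of -1.42, or -0.98 after normexp. Ppara, the fatty acid receptor, had 0.86 and the liver transcription factor gene Cebpa 0.80. The xenobiotic receptors Nr1i2 (-0.25) and Nr1i3 (0.34), the antioxidant factor Nfe2l2 (-0.23) and Hnf4a (-0.16) lay within 1.5-fold. They are known as regulators of carboxylesterases, but were named after their values were seen and do not stand for all such regulators. In the whole list 3 genes, Ppara and Cebpa among them, were at least 1.5-fold higher and 2 lower by as much. The part of any regulator in the carboxylesterase differences was not tested.

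Genes of folding and retention in the endoplasmic reticulum lumen, where most carboxylesterases reside, had a median of 0.05 over 14 measured of 15, with 8 positive and 6 negative. The median was negative under 4 alternatives, at -0.07 after quantile and loess normalization, -0.01 after normexp and -0.00 on the matrix values. At the 2-fold mark 0 were higher and 0 lower. The oxidoreductase gene Ero1b had -0.90, the disulfide isomerase gene Pdia4 0.63, the retention receptor gene Kdelr2 0.52 and the translocon subunit gene Ssr1 -0.49.

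Markers of other cell types also differed between the pools. All 5 measured macrophage markers of 6 were lower in the Ad-378 pool (median -0.91), with Cd5l (-1.12) and Adgre1 (-1.04) at least 2-fold lower. Their summed level, in units of the 75th percentile, was 61.1 under Ad-Ctrl and 30.9 under Ad-378. The 6 stellate cell markers fell into 2 sets. Col3a1 (-2.71), Col1a1 (-2.22) and Lum (-1.94) were at least 2-fold lower, while Reln had -0.46, and Dcn (-0.20) and Lrat (-0.01) were within scanner error. Their summed level was 71.3 under Ad-Ctrl and 36.8 under Ad-378. Endothelial markers had a median of -0.21 over 5, a summed level of 44.6 and 36.9, and 0 at least 2-fold apart. The 8 hepatocyte markers had a summed level of 996 and 1129. The part of cell makeup in the carboxylesterase differences was not tested.

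Markers of tissues that also hold carboxylesterases were mostly dim. Of adipocyte markers, Adipoq, Plin1 and Lep were not well above background on either array, Retn had 0.02, and Cidec is the gene given above. The summed level of the 2 measured genes was 10.97 under Ad-Ctrl and 35.0 under Ad-378. Almost all of it came from Cidec, with signals of 8765 and 24346, against 18.4 and 16.2 for Retn. Of small intestine markers, Vil1 and Lct were not well above background on either array, Sis had -0.07 and Fabp2 0.87, with a summed level of 15.7 and 28.7. That sum came almost all from Fabp2, with signals of 12511 and 19892, against 33.2 and 27.6 for Sis. Of pancreas markers 2 of 4 were measured, Cela1 (-0.63) and Prss1 (0.31), at a summed level of 0.085 and 0.074. Cholangiocyte markers (3 of 4 measured, summed level 0.593 and 0.951) had Sox9 at 0.78, with Epcam (0.56) and Krt19 (-0.36) both within scanner error of 0. Erythroid markers (3 of 4, summed level 30.3 and 34.1) had Alas2 at 2.02 but the globin genes Hba-a1 at -0.13 and Hbb-bs at 0.04.

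**Figure D5:**
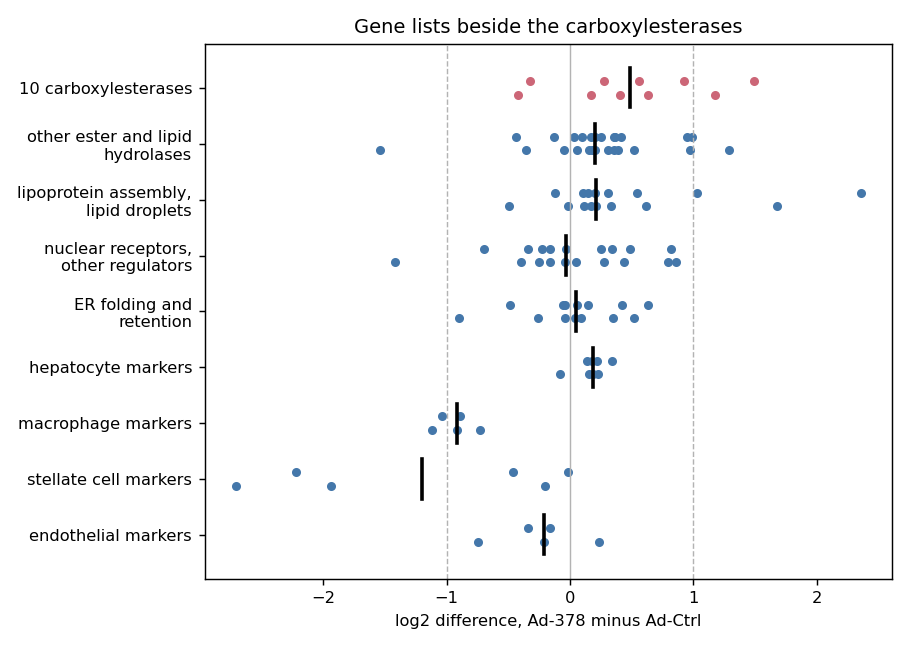
Log2 difference (Ad-378 minus Ad-Ctrl) of single genes, for the 10 member carboxylesterases and for 8 lists. Each point is a gene, black bars are medians, dashed lines are 2-fold. The median of the 10 members is 0.49, the hepatocyte markers lie near 0.18, the macrophage markers lie below 0, and the stellate cell markers split into 2 sets.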

How the data were processed

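Liver RNA of 2 pools was measured on Agilent 1-colour arrays (44397 spots, 1377 controls). The deposited processed signals are intensities that, per the file headers, were background-subtracted and detrended within the array, without scaling between arrays. Flags are deposited as other values of 0 or 1. Agilent Feature Extraction is given as version 9.1 in the submitters' processing notes and as 11.0.1.1 in the file headers. The deposited series matrix equals the raw median intensities in 100% of values, and its medians are 103 for Ad-Ctrl and 95 for Ad-378; its scale is therefore linear, uncentred and without a direction.

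Control spots were dropped, as were 123 gene spots marked as outliers on each array. Processed signals were divided by the array's 75th percentile over probes, and log2 was taken. Probes were named by RefSeq identifier (27219 of 39401), and a gene was read from the brightest of its probes that passed the scanner's background test on each array. Scanner error came from the deposited error of both spots. Probes with 10 spots had a median SD of 0.060 (Ad-Ctrl) and 0.065 (Ad-378) on the log2 scale. The number of arrays limits the precision, and no scan batch could be tested. No p-value was computed. Members and gene lists were chosen with earlier results of these data known. Named were all carboxylesterases, up to 4 genes per list with the largest difference, all list genes at least 2-fold apart and the hepatocyte markers. A result that this rule names is not reported here. Other settings were quantile and loess (span 0.3) normalization, the percentile over detected probes, normexp (offset 50), matrix values, the mean over probes, no background filter, and thresholds of 1.5-fold and 3-fold. The normexp fit left out spots marked non-uniform (153 and 301), since local backgrounds up to 6305 distorted it. Steps were tested on simulated data. Promoter windows were aligned globally. Loess used statsmodels 0.14.6, normexp limma 3.58.1 in R 4.3.3, the alignments Biopython 1.88, and all else pandas 2.3.3 and numpy 2.4.6 in Python 3.11.15.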

Additional observations from a re-analysis of the deposited data

How the results depend on the processing

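No paired analysis was possible because replicate 1 is the only sample of either group, and for the same reason no sample could be left out in turn. Of 70 member values under 7 alternatives, 18 could not change, since 8 members have 1 probe and all 10 pass the background filter. Of the other 52, 51 stayed within the 95% scanner range of the reported value, and Ces2c with the mean over probes (-0.19) did not. At thresholds of 1.5-fold and 3-fold, 4 and 0 members were higher. Of all genes, normexp gave 194 higher and 343 lower by 2-fold or more, and the matrix values gave 222 and 394; the cause was not tested. Without the background filter, which lets dim probes in, there were 1059 higher and 1164 lower. A threshold of 1.5-fold gave 1256 and 1721, and one of 3-fold gave 106 and 201. The members' median moved from 0.49 to 0.33 after quantile and 0.31 after loess normalization; the scanner range of a single gene is too wide a measure to show that a list's median is stable. The signal over background limits Ces1a and Ces4a.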
